A study of Mus musculus with 8 samples.

Results

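The Ifit family and core antiviral effectors described here are 9 genes induced by type I interferon: Ifit1, Ifit2, Ifit3, Ifit3b, Oasl2, Rsad2, Isg15, Usp18 and Bst2. They were taken by name from a table of 24498 genes, in which all 9 had reads in every library. The names were proposed with the difference between the vectors already known, that is, they were chosen by their read counts in these 8 libraries, so that difference is described below with no p-value, and nothing is read from its counts of calls. The samples were dorsal hippocampus of male C57BL/6J mice, 10 to 12 weeks old, injected 3 weeks earlier with an adeno-associated virus. The knockdown vector, AAV2/9.U6.shACSS2.CMV.EGFP, carried a short hairpin RNA against Acss2, which converts acetate to acetyl-CoA, under the U6 promoter. The control vector, AAV2/9.CMV.EGFP.polyA, carried EGFP and no hairpin cassette, so the presence of a hairpin and the loss of Acss2 cannot be told apart. Trained mice explored 3 objects in 3 trials of 6 min and were killed 30 min later, while the others stayed in the home cage.

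The 4 groups were trained with the knockdown vector (KD.249 and KD.251), home cage with the knockdown vector (KD.253 and KD.255), trained with the control vector (eGFP.250 and eGFP.266) and home cage with the control vector (eGFP.254 and eGFP.268), each library named by the end of its deposited column name. The labels give no number of mice behind a library, so p-values measure only the spread between libraries, which may be technical. Values are reads scaled by the size factor of the library, called normalized counts here. Reads in genes ranged between 6537749 and 9863728 in 6 libraries, but reached only 1484318 in KD.251 and 272456 in KD.255. A single read was therefore worth 2.88 normalized counts in KD.251 and 15.6 in KD.255, against 0.444 to 0.659 elsewhere. Acss2 itself had 25.6 (KD.249), 57.7 (KD.251), 25.0 (KD.253) and 15.6 (KD.255) normalized counts with the knockdown vector, against 87.4 (eGFP.250), 67.5 (eGFP.266), 58.2 (eGFP.254) and 82.0 (eGFP.268) with the control vector. All 4 knockdown libraries lay below the controls, KD.251 by the least, and the value in KD.255 was 1 read. Across all genes, limma gave a log2 difference of -1.37 (SE 0.33) with an adjusted p = 0.386, which missed the threshold of 0.05. A set of 15 genes of hippocampal neurons, some of them general neuronal genes, summed to 40299 to 51950 normalized counts in knockdown libraries and 46627 to 58875 in control libraries. With no other tissue beside it, this level does not test the tissue label.

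Type I interferons bind a receptor made of Ifnar1 and Ifnar2, which signals through the kinases Jak1 and Tyk2 to a transcription factor complex that includes Stat2 and Irf9. That complex binds an interferon-stimulated response element, built of GAAA repeats, near the start of its target genes. Ifit proteins bind viral or otherwise non-self RNA and hinder its translation, and in the brain such genes are known to be inducible in neurons, astrocytes and microglia. Oasl2 belongs to the oligoadenylate synthetase family, Rsad2 encodes viperin, which makes an antiviral nucleotide, and Bst2 encodes tetherin, which holds budding virions at the cell membrane. Isg15 is a ubiquitin-like protein that is attached to other proteins, and Usp18 removes it and also restrains signaling at Ifnar2.

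The 4 Ifit genes lie in a cluster on chromosome 19, all on the plus strand, in 99.3 kb (GRCm38). Ifit2 comes first (34550694 to 34576419), followed by Ifit3 (34583531 to 34588731), Ifit3b (34607970 to 34613401) and Ifit1 (34640871 to 34650009). The other members are on separate chromosomes: Oasl2 on chromosome 5 (114896936 to 114912234, plus strand), Rsad2 on chromosome 12 (26442746 to 26456452, minus strand), Isg15 on chromosome 4 (156199424 to 156200818, minus strand), Usp18 on chromosome 6 (121245906 to 121270917, plus strand) and Bst2 on chromosome 8 (71534255 to 71537456, minus strand). Promoter windows from RefSeq (GRCm38.p6), each with 250 bases before and 50 after an annotated start, were found for 8 members, that is for all but Usp18. They were searched on both strands for GAAA followed by any 2 bases and GAAA again, which reads TTTC, 2 bases and TTTC on the other strand, and overlapping matches were counted. Of the 8 members, 6 had a match and 5 had at least 2, whereas 3.44% of all 32851 windows had a match and 0.225% had at least 2. Per gene, the background was 3.68% of the tested genes with a window. Windows of Ifit2 and Oasl2 held no match to these letters.

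The 6 windows with a match are shown as 200 bases that end just before the annotated start, with the matched letters in capitals. They are Ifit1 (chr19:34640689-34640888 on the plus strand), Ifit3 (chr19:34583329-34583528 on the plus strand), Ifit3b (chr19:34607757-34607956 on the plus strand), Rsad2 (chr12:26456453-26456652 on the minus strand), Isg15 (chr4:156200819-156201018 on the minus strand) and Bst2 (chr8:71537473-71537672 on the minus strand), each read 5′ to 3′ on the strand of its gene.
Ifit1: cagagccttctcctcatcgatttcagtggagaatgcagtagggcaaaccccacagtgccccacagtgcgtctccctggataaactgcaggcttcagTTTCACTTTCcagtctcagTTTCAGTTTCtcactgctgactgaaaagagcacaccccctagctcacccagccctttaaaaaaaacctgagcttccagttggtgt
Ifit3: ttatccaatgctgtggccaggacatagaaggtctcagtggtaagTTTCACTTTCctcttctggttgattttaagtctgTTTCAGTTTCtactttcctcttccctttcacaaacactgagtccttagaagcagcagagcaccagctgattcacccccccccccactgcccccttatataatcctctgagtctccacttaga
Ifit3b: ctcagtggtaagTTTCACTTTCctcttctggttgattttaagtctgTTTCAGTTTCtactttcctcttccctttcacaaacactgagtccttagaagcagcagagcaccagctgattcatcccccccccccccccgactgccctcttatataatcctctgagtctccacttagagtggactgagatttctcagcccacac
Rsad2: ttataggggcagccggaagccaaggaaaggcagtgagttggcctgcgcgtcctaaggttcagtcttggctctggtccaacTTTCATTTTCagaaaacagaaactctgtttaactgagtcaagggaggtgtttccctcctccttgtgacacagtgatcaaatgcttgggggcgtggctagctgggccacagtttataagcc
Isg15: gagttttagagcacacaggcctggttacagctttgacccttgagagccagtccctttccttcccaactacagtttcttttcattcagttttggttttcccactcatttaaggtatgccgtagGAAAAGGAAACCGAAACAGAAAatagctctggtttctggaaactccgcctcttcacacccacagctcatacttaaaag
Bst2: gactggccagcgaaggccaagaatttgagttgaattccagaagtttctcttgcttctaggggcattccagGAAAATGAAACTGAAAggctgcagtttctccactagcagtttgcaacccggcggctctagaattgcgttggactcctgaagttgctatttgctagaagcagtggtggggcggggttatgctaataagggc

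In Ifit1 the matches began 104 and 85 bases before the start, and in Isg15 they began 78, 72 and 66 bases before it and overlapped. Those of Bst2, at 130 and 124 bases, overlapped too, and Rsad2 had a single match at 120. Ifit3 and Ifit3b carried the same pair of matches, at 156 and 122 bases in Ifit3 and at 188 and 154 bases in Ifit3b. Over the 168 bases in which these windows align, gaps left out, 166 (98.8%) were identical. Ifit3b also carried extra bases in a run of C. Upstream of Ifit1, the neighbouring Ifit1bl2 begins on the opposite strand, and their windows share 245 bases, so both genes have the same matches.

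**Figure D1:**
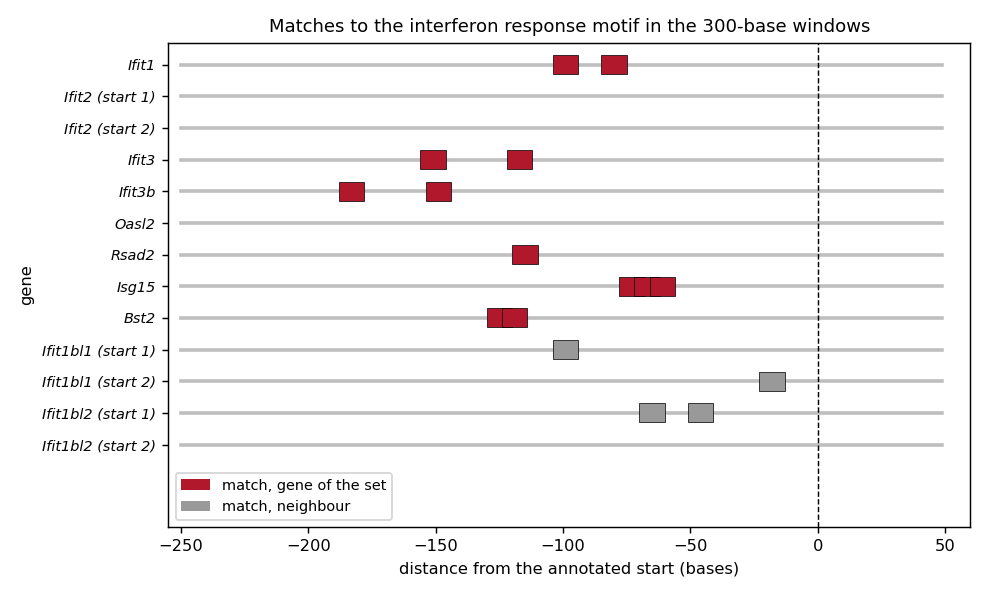
Each line is the 300-base window around an annotated start and each box a match to the response motif, with the distance from the start in bases on the horizontal axis and genes down the page. The matches of Ifit1, Ifit3, Ifit3b, Rsad2, Isg15 and Bst2 begin between 188 and 66 bases before the start, and the windows of Ifit2 and Oasl2 are empty.

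The first question was how these genes differed between the vectors. All 9 averaged higher in the knockdown libraries than in the control libraries, by a ratio of means between 4.11 for Bst2 (7.32 without eGFP.250) and 30.7 for Isg15 (15.7 without KD.249). For 8 of the 9, every knockdown library lay above every control library, and Bst2 was the exception. Over all 12681 tested genes, 2.28% showed this separation upward (2.02% with TMM scaling, which also separated 8), and nothing is read from the comparison because this difference chose the members.

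Ifit3 stood at 1023 (KD.249), 268.3 (KD.251), 768 (KD.253) and 622 (KD.255) normalized counts in knockdown libraries, against 21.7 (eGFP.250), 51.2 (eGFP.266), 32.0 (eGFP.254) and 27.5 (eGFP.268) in control libraries. Even the lowest knockdown library was 5.24 times the highest control. The means were 670.5 ± 315 with the knockdown vector and 33.1 ± 12.8 with the control vector (SD, n = 4 per vector), a ratio of 20.3. Its near copy Ifit3b had 556 (KD.249), 101 (KD.251), 397 (KD.253) and 373 (KD.255) normalized counts in knockdown libraries, against 12.4 (eGFP.250), 26.8 (eGFP.266), 25.6 (eGFP.254) and 16.0 (eGFP.268) in control libraries. The groups did not overlap, with means of 357 ± 189 and 20.2 ± 7.10 for knockdown and control libraries (SD, n = 4 per vector), a ratio of 17.7. These genes share 869 stretches of 50 bases in their exons, 51.2% of those of Ifit3 and 44.5% of those of Ifit3b, so the split of reads between them is uncertain. The ratio of Ifit3 to Ifit3b reads, not scaled for length, was 1.67 to 2.66 in knockdown libraries and 1.25 to 1.91 in control libraries, and these ranges overlapped.

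Ifit1, which recognises the cap of foreign RNA, had 703 (KD.249), 124 (KD.251), 525 (KD.253) and 358 (KD.255) normalized counts in knockdown libraries, against 10.3 (eGFP.250), 27.3 (eGFP.266), 26.8 (eGFP.254) and 10.2 (eGFP.268) in control libraries. The groups did not overlap, and KD.251 was again the lowest knockdown library. Its means were 427 ± 246 with the knockdown and 18.6 ± 9.67 with the control vector (SD, n = 4 per vector), a ratio of 22.9. For Ifit2, an RNA-binding relative, the values were 761 (KD.249), 199 (KD.251), 629 (KD.253) and 389 (KD.255) in knockdown libraries, against 58.9 (eGFP.250), 79.4 (eGFP.266), 53.5 (eGFP.254) and 51.9 (eGFP.268) in control libraries. Again the groups did not overlap. With means of 494 ± 249.97 with the knockdown and 60.9 ± 12.7 with the control vector (SD, n = 4 per vector), its ratio of 8.11 was the lowest of the 4 Ifit genes.

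Oasl2 had 872 (KD.249), 144 (KD.251), 1029 (KD.253) and 373 (KD.255) normalized counts in knockdown libraries, against 19.1 (eGFP.250), 35.4 (eGFP.266), 37.2 (eGFP.254) and 13.7 (eGFP.268) in control libraries. Without overlap between the groups, the ratio of means was 22.9 (605 ± 415 with the knockdown and 26.4 ± 11.7 with the control vector, SD, n = 4 per vector). Rsad2 had 165 (KD.249), 57.7 (KD.251), 142 (KD.253) and 62.2 (KD.255) normalized counts in knockdown libraries, against 3.10 (eGFP.250), 8.13 (eGFP.266), 3.49 (eGFP.254) and 7.10 (eGFP.268) in control libraries. Its gap was the widest of the 9, since the lowest knockdown library was 7.09 times the highest control, and its ratio of means was 19.6 (107 ± 54.9 with the knockdown and 5.46 ± 2.53 with the control vector, SD, n = 4 per vector). In KD.255 the Rsad2 value rests on 4 reads.

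The modifier Isg15 had 343 (KD.249), 11.5 (KD.251), 139 (KD.253) and 62.2 (KD.255) normalized counts in knockdown libraries, against 0.517 (eGFP.250), 9.57 (eGFP.266), 5.82 (eGFP.254) and 2.22 (eGFP.268) in control libraries. Values spread widely within both vectors, and the groups were separated only narrowly. The value in KD.251 was 4 reads, with an exact Poisson 95% interval (counting error only) of 3.14 to 29.5 normalized counts that reaches into the controls. Means of 139 ± 146 with the knockdown and 4.53 ± 4.02 with the control vector (SD, n = 4 per vector) gave a ratio of 30.7, which rests on KD.249: without that library it was 15.7, below the 18.0 of Ifit1 and the 22.1 of Usp18. Without eGFP.266 it was 48.7. Its protease Usp18 had 59.9 (KD.249), 14.4 (KD.251), 63.3 (KD.253) and 77.8 (KD.255) normalized counts in knockdown libraries, against 2.07 (eGFP.250), 1.91 (eGFP.266), 4.07 (eGFP.254) and 1.33 (eGFP.268) in control libraries. The groups did not overlap, at means of 53.8 ± 27.4 with the knockdown and 2.35 ± 1.19 with the control vector (SD, n = 4 per vector), a ratio of 22.9. The values in KD.251 and KD.255 were 5 reads each, and the gene overlaps a non-coding gene on the other strand, Gm44148, so without a stated strand setting its reads are uncertain.

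Bst2 departed from the other 8. It had 73.7 (KD.249), 5.77 (KD.251), 76.5 (KD.253) and 31.1 (KD.255) normalized counts in knockdown libraries, against 26.4 (eGFP.250), 5.74 (eGFP.266), 9.89 (eGFP.254) and 3.55 (eGFP.268) in control libraries. KD.251 lay within the range of the controls, so the groups overlapped, although the values in KD.251 and KD.255 were only 2 reads each. The ratio of means was 4.11 (46.8 ± 34.3 with the knockdown and 11.4 ± 10.3 with the control vector, SD, n = 4 per vector). Among the controls, the order of Bst2 was the order of Ttr, the choroid plexus transcript, which had 57479 (eGFP.250), 620.0 (eGFP.266), 15080 (eGFP.254) and 133 (eGFP.268) normalized counts. The knockdown libraries did not follow that order, with Ttr at 173 (KD.249), 1768 (KD.251), 341 (KD.253) and 482 (KD.255), highest in the library with the least Bst2. Its part in the Bst2 values was not tested.

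**Figure D2:**
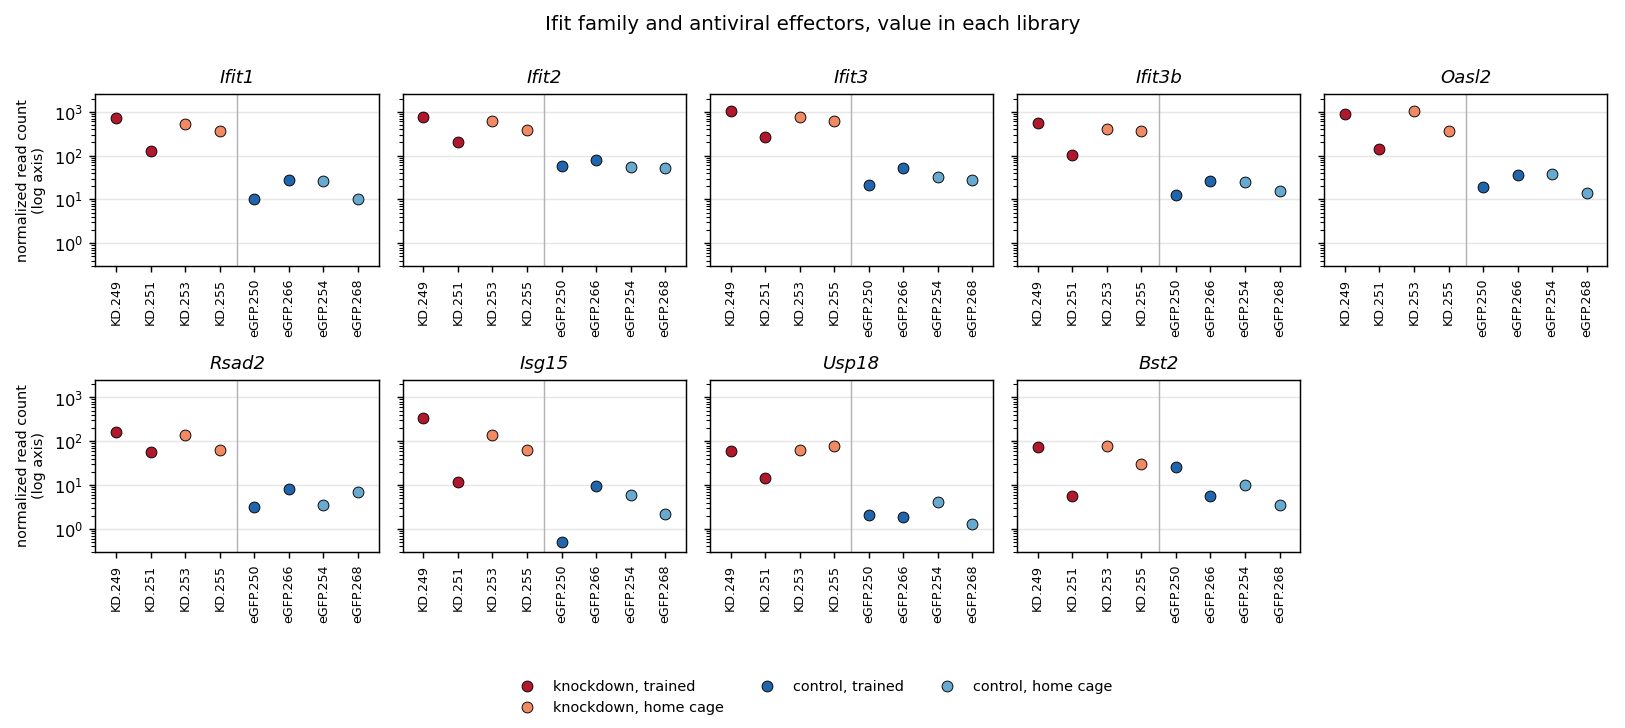
Each panel is 1 gene, each point 1 library, and the vertical axis is the normalized read count on a log axis, with knockdown libraries left of the line and control libraries right of it. Ifit3 lies between 268.3 and 1023 in knockdown libraries and between 21.7 and 51.2 in control libraries, and Bst2 is the only panel in which the vectors overlap.

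Relative to exon length, Ifit3 led in both vectors, with a mean level of 384 normalized counts per kb in knockdown and 19.0 in control libraries. In knockdown libraries it was followed by Isg15 (184), Ifit3b (178), Ifit1 (161), Ifit2 (126), Oasl2 (94.9), Bst2 (51.8), Rsad2 (24.6) and Usp18 (19.3 per kb). In control libraries the order was Ifit2 (15.5), Bst2 (12.6), Ifit3b (10.1), Ifit1 (7.02), Isg15 (5.99), Oasl2 (4.14), Rsad2 (1.26) and Usp18 (0.841 per kb) after Ifit3. Isg15, Ifit3b, Ifit1 and Ifit2 were closer to one another in knockdown libraries than the spread between those libraries, and their order there is not resolved; Isg15 was at 93.8 per kb without KD.249. Nor is the place of Bst2 in the control order, since its level there was 7.08 per kb without eGFP.250, below Ifit3b (11.4) and Ifit1 (8.06). Rsad2 and Usp18 were last in both. All 9 genes passed the filter of a mean of at least 10 normalized counts over the 8 libraries, but Rsad2, Isg15 and Usp18 did so only through the knockdown libraries.

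Knockdown libraries differed among themselves in the same direction for all 9 genes, with KD.251 the lowest each time. For Rsad2, Isg15, Usp18 and Bst2, and barely for Ifit2, the exact Poisson 95% intervals of KD.251 and KD.255 overlapped. Those of Rsad2 were 35.2 to 89.1 in KD.251 and 17.0 to 159 in KD.255. Which of these 2 libraries was the lowest is not resolved for these genes. KD.249 was the highest for 6 genes, KD.253 for Oasl2 and Bst2, and KD.255 for Usp18. The ratio of KD.249 to KD.251, both trained, was 2.87 for Rsad2, 3.81 for Ifit3, 3.82 for Ifit2, 4.15 for Usp18, 5.51 for Ifit3b, 5.67 for Ifit1, 6.05 for Oasl2, 12.8 for Bst2 and 29.7 for Isg15. Reads of the 9 genes together made up 1042 (KD.249), 216 (KD.251), 875 (KD.253) and 554 (KD.255) reads in every 1000000 reads in genes in knockdown libraries, against 36.1 (eGFP.250), 54.6 (eGFP.266), 45.2 (eGFP.254) and 30.5 (eGFP.268) in control libraries. Each knockdown library thus stood above each control, KD.251 the closest. That library also had the most Acss2 of the knockdown libraries and 1484318 reads against 8541894 in KD.249. Within the controls eGFP.266 was the highest for 6 genes, eGFP.254 for Oasl2 and Usp18, and eGFP.250 for Bst2. The part of depth and of Acss2 level in these differences was not tested.

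**Figure D3:**
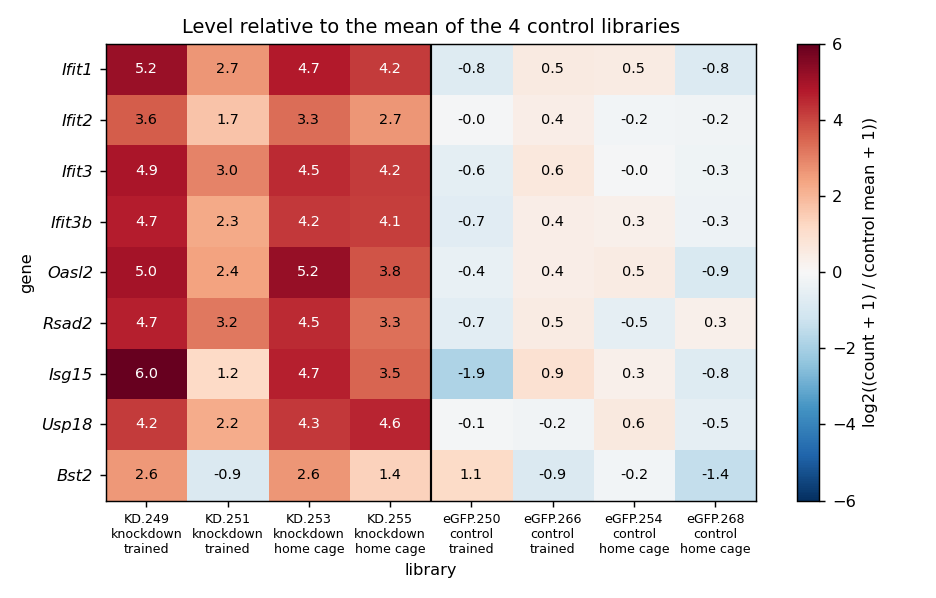
Rows are genes and columns libraries, knockdown on the left, and each cell gives log2 of the count plus 1 over the control mean plus 1. The KD.251 column is the palest of the knockdown columns for all 9 genes, and its Bst2 cell is below 0.

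In the fit across all genes, the log2 differences of the 9, knockdown minus control on the scale log2(normalized count + 1), ran between 1.78 for Bst2 and 4.34 for Ifit1, with a median of 3.995, beside a median of -0.03 over all tested genes. The adjusted threshold was passed by 6 of the 9 with limma, beside 0.0946% of all tested genes, and by 8 with edgeR, beside 0.812% (0.804% upward and 0.00789% downward). DESeq2 also called 8, beside 1.01% (0.923% upward and 0.0867% downward). Nothing is read from these counts, as the contrast chose the genes. Leaving out KD.251, KD.253, KD.255 or KD.249 moved the limma count to 8, 7, 2 or 1 of the 9, leaving out eGFP.266 moved it to 1, and leaving out eGFP.250, eGFP.254 or eGFP.268 to 0.

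Whether training altered these genes is a question that the choice of members did not use. None of the 9 passed the test between trained and home-cage mice, with either vector, in limma, edgeR or DESeq2. With the knockdown vector, limma called 0.0% of the 12681 tested genes, with 568 at an unadjusted p under 0.05, and edgeR and DESeq2 called 0 genes. The fitted log2 difference, trained minus home cage, was negative for 8 of the 9, with a median of -0.55, beside 0.04 over all tested genes. Of the trained libraries, KD.251 was the lowest knockdown library for all 9. The other, KD.249, exceeded both home-cage libraries for Ifit1, Ifit2, Ifit3, Ifit3b, Isg15 and Rsad2. Without KD.251 the differences of all 9 genes but Usp18 were positive, so the shared negative sign depended on that library. The means of normalized counts were lower in trained libraries for 7 of the 9, all but Isg15 and Rsad2. Usp18 was the only member with both trained libraries below both home-cage libraries, a pattern that 14.0% of all tested genes showed. Its log2 difference was -1.22 (SE 0.90, 95% interval -3.25 to 0.82, limma adjusted p = 0.808), and it moved to -0.22 without KD.251 and to -2.21 without KD.249. Bst2 differed by -1.15 (SE 1.17, limma adjusted p = 0.847) and Rsad2 by 0.06 (SE 0.72, limma adjusted p = 0.990), and both signs turned without 1 of the libraries. Without KD.253 limma called 1242 genes and none of the 9, and KD.255, with 272456 reads, was then the only home-cage knockdown library.

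With the control vector, the fitted log2 difference was positive for 6 of the 9, at a median of 0.02, beside 0.01 over all tested genes. The means of normalized counts were higher in trained libraries for 7 of the 9, all but Ifit3b and Usp18. Limma called 0.0% of all tested genes, with 181 at an unadjusted p under 0.05, edgeR called 0, and DESeq2 called 4 genes (0.0315%), none of them among the 9. Ifit2 was the only member with both trained libraries above both home-cage libraries, which 14.5% of all tested genes showed. Its difference was 0.37 (SE 0.53, 95% interval -0.83 to 1.57, limma adjusted p = 1.00). Bst2 differed by 0.95 (SE 1.17) and Isg15 by -0.23 (SE 1.45), each at a limma adjusted p of 1.00, and neither sign held without eGFP.250. Of the 9 genes, only Ifit2 kept its sign whichever single library was left out. The intervals of all members but Ifit2 span more than a doubling in either direction, so a change of that size was not detectable here.

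The difference of the training responses, knockdown minus control, was tested directly as an interaction. Limma, edgeR and DESeq2 called 0 genes, 0.0% of those tested, with 112 at an unadjusted p under 0.05 in limma. Among the 9 it ran between -2.10 for Bst2 (SE 1.65, 95% interval -5.82 to 1.63) and 0.04 for Rsad2 (SE 1.02), both at a limma adjusted p of 1.00, with a median of -0.57. The Bst2 value moved to -0.37 without KD.251 and to -3.83 without KD.249. For Ifit1, Ifit2, Ifit3, Ifit3b, Oasl2 and Isg15 the difference turned positive without KD.251, so those negative signs did not hold. Without KD.253 limma called 710 genes and none of the 9.

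**Figure D4:**
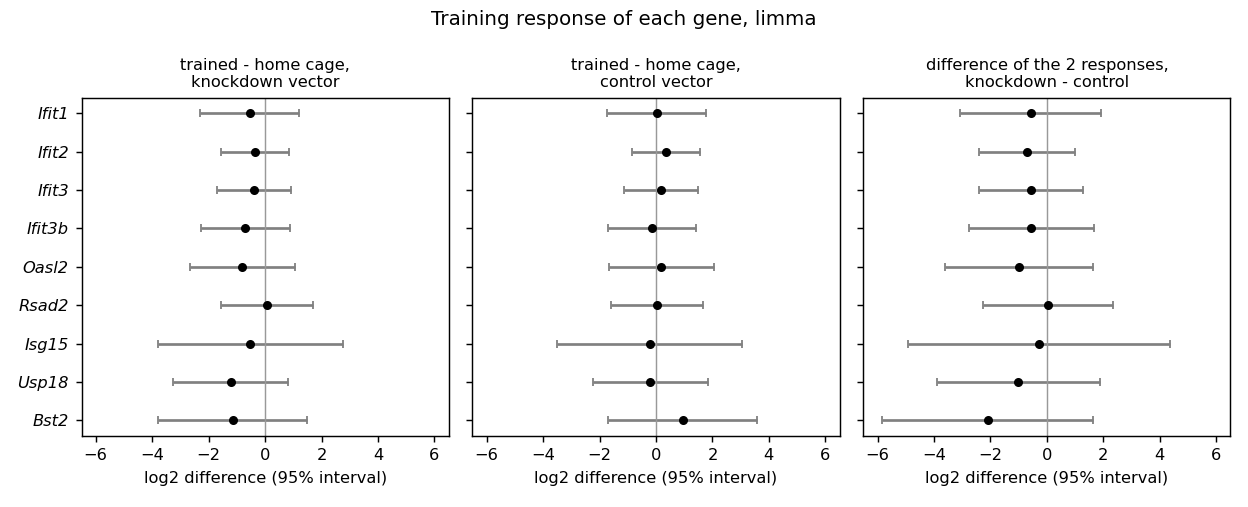
Points are limma log2 differences of the 9 genes and bars their 95% intervals, for training with the knockdown vector, training with the control vector and the difference of these responses. Every interval crosses 0, and that of Bst2 in the last panel runs between -5.82 and 1.63.

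The rest of the pathway was described from gene lists chosen with earlier results of these data known. Their adjusted p-values and counts of calls between the vectors are therefore a description, and nothing is read from them. Of 13 interferon ligand genes, 10 had 0 reads in all 8 libraries. Ifnb1 had 1 read in KD.249, Ifng 1 read in KD.251 and Ifnz 1 read in eGFP.268, so no ligand could be tested. With 3 reads taken as the limit, a count of 0 allows up to 46.7 normalized counts in KD.255, 8.65 in KD.251 and at most 1.98 in the other 6 libraries. The exact Poisson 95% interval for 0 reads, the rule used for Isg15 above, reaches 57.4 in KD.255 and 10.6 in KD.251. The receptor chains were detected in every library and differed between the vectors by less than the spread between libraries. Ifnar1 averaged 245 ± 13.9 normalized counts with the knockdown and 235 ± 34.3 with the control vector, and Ifnar2 averaged 132 ± 33.9 with the knockdown and 129 ± 25.8 with the control vector (SD, n = 4 per vector). Their log2 differences were 0.07 (SE 0.16) and 0.02 (SE 0.24), and the sign of either turned when single libraries were left out.

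Downstream of the receptor, Irf9 had 259 (KD.249), 95.2 (KD.251), 261 (KD.253) and 187 (KD.255) normalized counts in knockdown libraries, against 69.8 (eGFP.250), 64.1 (eGFP.266), 64.0 (eGFP.254) and 39.9 (eGFP.268) in control libraries. The groups did not overlap, and KD.251 was again the lowest knockdown library. Its log2 difference was 1.66 (SE 0.32), which passed only in the count tests (limma adjusted p = 0.191, edgeR adjusted p = 0.00922). Stat2 differed by 1.073 (SE 0.32, limma adjusted p = 0.616, edgeR adjusted p = 0.0767). Of 12 tested receptor and JAK-STAT genes, 10 were on the higher side, and 0 passed in limma, 2 in edgeR and 3 in DESeq2, with a median of 0.26.

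Irf7, the factor that amplifies interferon production, rose in the knockdown libraries. It had 186 (KD.249), 34.6 (KD.251), 195 (KD.253) and 187 (KD.255) normalized counts there, against 5.69 (eGFP.250), 6.22 (eGFP.266), 8.72 (eGFP.254) and 7.98 (eGFP.268) in control libraries. The log2 difference was 3.96 (SE 0.48, limma adjusted p = 0.0371). It was the only one of 16 tested sensors and interferon regulatory factors to pass in limma, while 4 passed in edgeR and in DESeq2, and 11 of the 16 were on the higher side with a median of 0.77. Among 33 other tested interferon-stimulated effectors, 31 were on the higher side with a median of 2.41. Of these, 3 passed in limma, each upward, beside 0.0946% of all tested genes. They were Ddx60, a helicase (4.18, SE 0.54), Trim30a, a ubiquitin ligase family member (3.31, SE 0.43), and Slfn8, a Schlafen gene (3.29, SE 0.41), all at a limma adjusted p of 0.0371. In edgeR 23 of the 33 passed, beside 0.812% of all tested genes, and in DESeq2 23, beside 1.01%, with 22 genes in common. Nothing is read from these shares, as the lists were chosen with earlier results of these data known. The limma calls of Irf7, Ddx60, Trim30a and Slfn8 were lost without KD.249, KD.255 or any 1 of the control libraries (adjusted p of Irf7 0.0605, 0.0568 and 0.125 to 0.216) and held without KD.251 or KD.253. No gene of these lists passed downward in any of these tools, and none passed for training or the interaction.

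The enzymes that attach Isg15 gave unequal results. Herc6, the mouse ligase for Isg15, had 284 (KD.249), 51.9 (KD.251), 237 (KD.253) and 280 (KD.255) normalized counts in knockdown libraries, against 39.3 (eGFP.250), 41.6 (eGFP.266), 26.2 (eGFP.254) and 36.8 (eGFP.268) in control libraries. The groups did not overlap, and the log2 difference of 2.29 (SE 0.45) passed in edgeR (adjusted p = 0.00757) and not in limma (adjusted p = 0.191). Trim25, a ligase that acts on the sensor RIG-I and is itself a target of Isg15, differed by 1.80 (SE 0.30, limma adjusted p = 0.148, edgeR adjusted p = 0.00681). Ube2l6, the conjugating enzyme, differed by 1.75 (SE 0.51, limma adjusted p = 0.616, edgeR adjusted p = 0.0531). Uba7, the activating enzyme, had 78.8 (KD.249), 5.77 (KD.251), 70.5 (KD.253) and 0 (KD.255) normalized counts in knockdown libraries. Control libraries had 10.3 (eGFP.250), 4.78 (eGFP.266), 19.8 (eGFP.254) and 12.9 (eGFP.268). Its limma log2 difference was 0.26 (SE 1.29), whose sign turned with a pseudocount of 0.1. In edgeR, which works on the recovered reads, it was 2.23 (edgeR adjusted p = 0.180). Of 7 tested genes of this list, 0 passed in limma, 2 in edgeR and 3 in DESeq2.

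**Figure D5:**
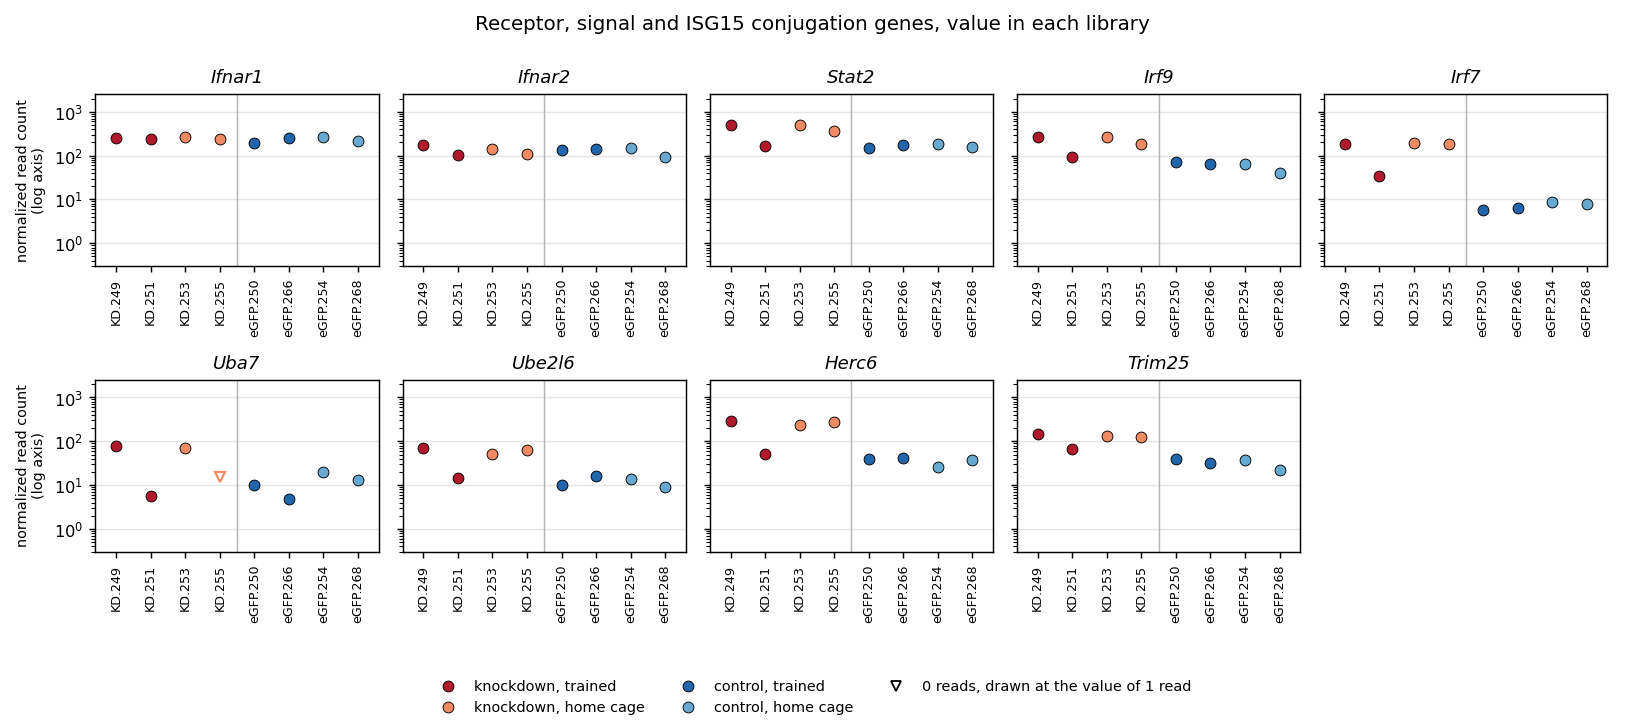
Each panel is 1 gene of the pathway outside the 9, each point 1 library, with the normalized read count on a log axis and open triangles for 0 reads, drawn at the value of 1 read. Irf7 lies between 34.6 and 195 in knockdown libraries and between 5.69 and 8.72 in control libraries, whereas the vectors overlap for Ifnar1 and Ifnar2.

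Markers of other cell types were also summed in each library. In bulk tissue, fewer cells of a type and less RNA per cell cannot be told apart. Summed levels of 16 microglial markers were 1699 to 2669 normalized counts in knockdown libraries, lowest in KD.251, and 1248 to 1490 in control libraries. All 16 were detected in every library and on the higher side, and 0 passed in limma, 1 in edgeR (C1qa) and 4 in DESeq2. Sums over 15 markers of T and NK cells were 121 to 196 normalized counts in knockdown libraries and 8.61 to 12.9 in control libraries. Most of this was Ccl5, a chemokine, at 129 (KD.249), 110 (KD.251), 107 (KD.253) and 109 (KD.255) in knockdown libraries, against 1.55 (eGFP.250), 2.87 (eGFP.266), 5.23 (eGFP.254) and 3.10 (eGFP.268) in control libraries (log2 difference 4.84, SE 0.38, limma adjusted p = 0.00516). It was not low in KD.251, unlike the 9 genes, and its call was lost without KD.249 (adjusted p = 0.0587). The other 14 markers, all too low to test, summed to 11.5 (KD.251) to 77.8 (KD.255) in knockdown libraries and to 5.74 to 11.4 in control libraries. Of the 15 markers, 14 were detected in KD.249, 5 in KD.251, 13 in KD.253 and 5 in KD.255, against 6 to 10 in control libraries. Among the defining chains, Cd3d and Cd3e were at 0 in KD.251 and KD.255, while KD.255 had 15.6 normalized counts, or 1 read, of Cd3g, and Cd2 had 31.1 there. In these shallow libraries a 0 allows, at the limit of 3 reads, up to 8.65 (KD.251) and 46.7 (KD.255) normalized counts, so it does not show absence. Sums over 6 markers of B and plasma cells were 55.3 (KD.249), 2.88 (KD.251), 98.2 (KD.253) and 0 (KD.255) in knockdown libraries, against 1.55 to 5.26 in control libraries. Markers of blood monocytes and neutrophils, 10 in all, summed to 23.0 (KD.249), 0 (KD.251), 19.1 (KD.253) and 0 (KD.255), against 2.66 to 4.07 in control libraries, with S100a8, Ly6g and Retnlg at 0 in all libraries. Of 10 tested astrocyte markers, 6 were on the higher side, with a median log2 difference of 0.01, and their sums overlapped between the vectors. Only the astrocyte filament gene Gfap had every knockdown library above every control, at 5387 (KD.249), 2282 (KD.251), 4875 (KD.253) and 4090 (KD.255) in knockdown libraries, against 1797 (eGFP.250), 2264 (eGFP.266), 2209 (eGFP.254) and 1886 (eGFP.268) in control libraries. Its lowest knockdown library was 1.008 times its highest control. Its log2 difference of 0.96 (SE 0.25) passed in DESeq2 and not in limma (adjusted p = 0.465) or edgeR (adjusted p = 0.0936). It ranged between 0.65 and 1.27 in limma when single libraries were left out. The choroid plexus sums were 307 to 2037 in knockdown and 281 to 61507 in control libraries. The part of these cell types in the values of the 9 genes was not tested.

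The genes whose profile over the 8 libraries was most like the mean profile of the 9 were sought among all other tested genes, by Pearson correlation of log2(normalized count + 1) with the mean of the 9 standardised profiles. This is a description over 8 libraries that share the vector difference and the depth of KD.251 and KD.255. The closest were Gbp7 (0.994), Trim30a (0.993), Gbp3 (0.989), Xaf1 (0.987), Pik3ap1 (0.986), Slfn9 (0.986), Slfn8 (0.986), Dtx3l (0.986), Oas2 (0.985) and Rtp4 (0.985). Gbp7 and Gbp3 encode guanylate-binding proteins, Oas2 an oligoadenylate synthetase, and Dtx3l a ubiquitin ligase. Gbp7 had 515 (KD.249), 136 (KD.251), 505 (KD.253) and 342 (KD.255) normalized counts in knockdown libraries, against 60.5 (eGFP.250), 55.0 (eGFP.266), 64.6 (eGFP.254) and 43.0 (eGFP.268) in control libraries. The 9 genes themselves correlated with their own mean profile between 0.786 for Bst2 and 0.994 for Ifit2 and Oasl2, so Bst2 followed it less closely than these 10 did.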

How the data were processed

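Per the submitters' processing notes, the tools were bcl2fastq 02.14.01.07, STAR 2.3.0, HTSeq 0.6.1, DESeq and bedtools, on mm10; the sources used here give neither the annotation nor the strand setting. Per the labels, polyadenylated RNA was sequenced. In the deposited signal, each library's read counts are divided by a size factor of its own: 100% of values were whole multiples of 1 read (relative tolerance 1e-06). Summary entries (5) held 34.5% to 39.5% of reads and were left out. Since the deposited unit is not raw counts, the design's choice for normalized values was used, limma 3.58.1 (R 4.3.3) with trend on log2(value + 1) over 12681 genes with a mean of at least 10, in 1 fit of 4 groups (4 residual and 5.13 prior degrees of freedom). Benjamini-Hochberg adjusted p under 0.05 over these genes was the threshold. edgeR 4.0.16 (quasi-likelihood, 103 genes called between vectors) and DESeq2 1.42.0 were run on the recovered reads. Other alternatives were TMM scaling, pseudocounts of 0.1 and 10, no filter, leaving out each library, and leaving out the 2 shallowest. Fold changes on this scale mostly understate those of low genes. The fits were tested on simulated data. Members, lists and naming rules (all members, ISG15 enzymes, relatives and neighbours, ligands, receptors, Stat2, Irf9, Irf7, the 10 most alike genes, and up to 5 called list genes) were chosen with earlier results of these data known. Single marker genes, such as Ccl5 and Gfap, were named after their values were seen. Positions are GENCODE M21 (GRCm38), and promoters are RefSeq (GRCm38.p6). A result on a further gene is not reported here.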

Additional observations from a re-analysis of the deposited data

Results flagged for a closer look

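Usp18 in KD.251 stood apart from the other 3 knockdown libraries. It had 59.9 (KD.249), 14.4 (KD.251), 63.3 (KD.253) and 77.8 (KD.255) normalized counts, and the gap below the next value was 0.842 of the whole range. The KD.251 value is 5 reads, with an exact Poisson 95% interval of 4.68 to 33.7 normalized counts. Of 18 groups of 4 libraries examined, 1 was singled out in this way, and chance singles out about 1 in 20.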

How the results depend on the processing

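The log2 differences between the vectors of all 9 genes were positive under every alternative run, and 8 or 9 of the 9 kept all knockdown libraries above all controls. Between the vectors 12 genes passed, against 103 with edgeR, 128 with DESeq2, 2 with a pseudocount of 0.1, 2 without the filter, 180 without KD.251 and KD.255, and 1 (without KD.249, eGFP.250, eGFP.254 or eGFP.268) to 929 (without KD.253) when single libraries were left out. Genes passing ranged between 0 and 1242 for training with the knockdown vector and between 0 and 710 for the interaction when single libraries were left out, and DESeq2 called 4 for training with the control vector. For training and the interaction, leave-one-out ranges of log2 differences were drawn up for only some of the 9 genes. Outside them, training with the knockdown vector also turned positive without KD.251 for Ifit1, Ifit2, Ifit3, Ifit3b, Oasl2 and Isg15. The interaction of the same genes turned positive without KD.251 too. Training with the control vector turned sign without some single library for Ifit1, Ifit3, Ifit3b, Oasl2, Rsad2 and Usp18 as well. The ranges that turned sign were -2.88 to 0.58 (Bst2) and -0.69 to 0.81 (Rsad2) for training with the knockdown vector. For training with the control vector they were -0.062 to 1.96 (Bst2) and -1.63 to 1.17 (Isg15), and for the interaction -0.72 to 0.79 (Rsad2). Between the vectors they were -1.28 to 1.80 (Uba7), -0.020 to 0.16 (Ifnar1) and -0.17 to 0.22 (Ifnar2). Signs also turned for Rsad2 with edgeR (training with the knockdown vector -0.029, interaction -0.087) and DESeq2 (interaction -0.054), for Isg15 training with the control vector (0.41 with edgeR, 0.34 with DESeq2, 0.045 with a pseudocount of 10), for Uba7 with a pseudocount of 0.1 (-0.50) and for Ifit1bl1 without KD.251 and KD.255 (0.079). The cause was not tested. No paired analysis was possible because the column names carry no replicate number of the labels. Depth limits KD.255 most, where Rsad2, Isg15, Usp18 and Bst2 rest on 4, 4, 5 and 2 reads.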

Other observations

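Of the relatives and neighbours of the 9 genes, 4 were examined, and between the vectors each missed the threshold in limma or was too low to test. Cmpk2, a mitochondrial nucleotide kinase that lies 12751 bases from Rsad2, had 135 (KD.249), 60.6 (KD.251), 137 (KD.253) and 77.8 (KD.255) normalized counts in knockdown libraries, against 47.1 (eGFP.250), 44.5 (eGFP.266), 44.8 (eGFP.254) and 63.4 (eGFP.268) in control libraries. The groups overlapped, and its log2 difference was 0.96 (SE 0.31, limma adjusted p = 0.775), beside 3.995 for Rsad2. Oasl1, next to Oasl2, was too low to test, at 24.6 (KD.249), 5.77 (KD.251), 36.9 (KD.253) and 0 (KD.255) normalized counts in knockdown libraries, against 0 to 1.74 in control libraries. In the Ifit cluster, Ifit1bl1 averaged 8.86 ± 6.38 normalized counts with the knockdown and 13.1 ± 4.22 with the control vector (SD, n = 4 per vector), a log2 difference of -1.02 (SE 0.92, limma adjusted p = 0.924) with 0 reads in KD.255. Ifit1bl2, which lies 127 bases from Ifit1 and shares its matches to the response motif, averaged 9.04 ± 7.75 with the knockdown and 3.45 ± 1.56 with the control vector (SD, n = 4 per vector) and was too low to test.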
